A study of Homo sapiens with 4 samples.

Results

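The effect of 5-azacytidine (AZA) on gene expression in AZA-sensitive MDS-L cells was described from 2 of the 4 arrays of the study, namely the vehicle array and the AZA array of this line. MDS-L is a line established from a patient with a myelodysplastic syndrome. The cells were grown with interleukin-3 and exposed for 72 h to vehicle (0.1% DMSO) or to 1 μM AZA. The other 2 arrays came from MDS-L/CDA, an AZA-resistant line made by introducing cytidine deaminase (CDA), the enzyme that breaks AZA down, into MDS-L cells and given the same treatments, and they are used here for values side by side only. The arrays were assigned by their titles, with which source names and descriptions concurred, whereas the treatment tag of the MDS-L AZA array read DMSO and that of the MDS-L/CDA vehicle array read AZA. The titles and source names also differed in the unit of the AZA dose, and the micromolar dose of the protocol is given here. With 1 array per condition, no test between conditions was possible, and "increased" and "decreased" below mean only a difference of at least 2-fold between the AZA and vehicle arrays.

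AZA is a cytidine analogue that cells phosphorylate and build into RNA and, after reduction, into DNA. In DNA it traps DNMT1, the enzyme that copies CG methylation onto the new strand, so that methylation is lost as cells divide, and genes that had been held silent by methylation, such as germline genes, can be transcribed. Immature myeloid cells that resemble the MDS-L line can mature towards granulocytes, mast cells, erythroid cells or megakaryocytes, each with its own granule or surface proteins.

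Each array carried 58185 probes for transcripts of 43311 names, and signals are background-subtracted scanner intensities, whose ratios were taken after scaling each array to its 75th percentile. A probe counted as measured where the scanner software called it well above background, which held for 20450 probes (35.1%) on the vehicle array and 21259 (36.5%) on the AZA array, and 0 spots were saturated. A gene was read from its brightest probe, and 17172 genes were measured on at least 1 array, 15104 of them on both, 1363 with AZA only and 705 in vehicle only. Where a gene was below background on 1 array, its fold is a bound, written "at least", taken against the higher of its own signal and the lowest signal called above background on that array (9.98 in vehicle and 10.1 with AZA). The sole error available was technical: among 255 probes spotted repeatedly, the log2 ratio of single spots had a median SD of 0.19, and 3451 genes with several probes measured on both arrays showed a median SD of 0.25 between probes. Neither value contains the variation between cultures, and in RNA from a bulk culture a higher signal from more cells of one kind cannot be told apart from more RNA per cell.

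AZA increased 1155 genes, 6.73% of those measured, and decreased 1036, or 6.03%. The decreases were the shallower: 355 genes rose at least 4-fold against 77 that fell so far, and 46 rose at least 16-fold against 1 that fell. Of the increased genes, 485 were below background in vehicle, while 145 of the decreased genes were below background with AZA. The balance between the directions depended on scaling, since 52.7% of the changed genes were increases here, 65.7% when the arrays were centred on probes above background on both, and 11.5% when they were centred on the median of all probes, most of which were not above background. The last scaling lowered the median log2 ratio of all measured genes by 0.54, from -0.13, so that the families below are best read against that median. A second probe of the same gene passed 2-fold in the same direction for 109 of 191 increased genes that had one (57.1%) but for 57 of 215 decreased genes (26.5%), and among all genes with several measured probes another probe was increased in 6.83% and decreased in 7.89%.

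**Figure D1:**
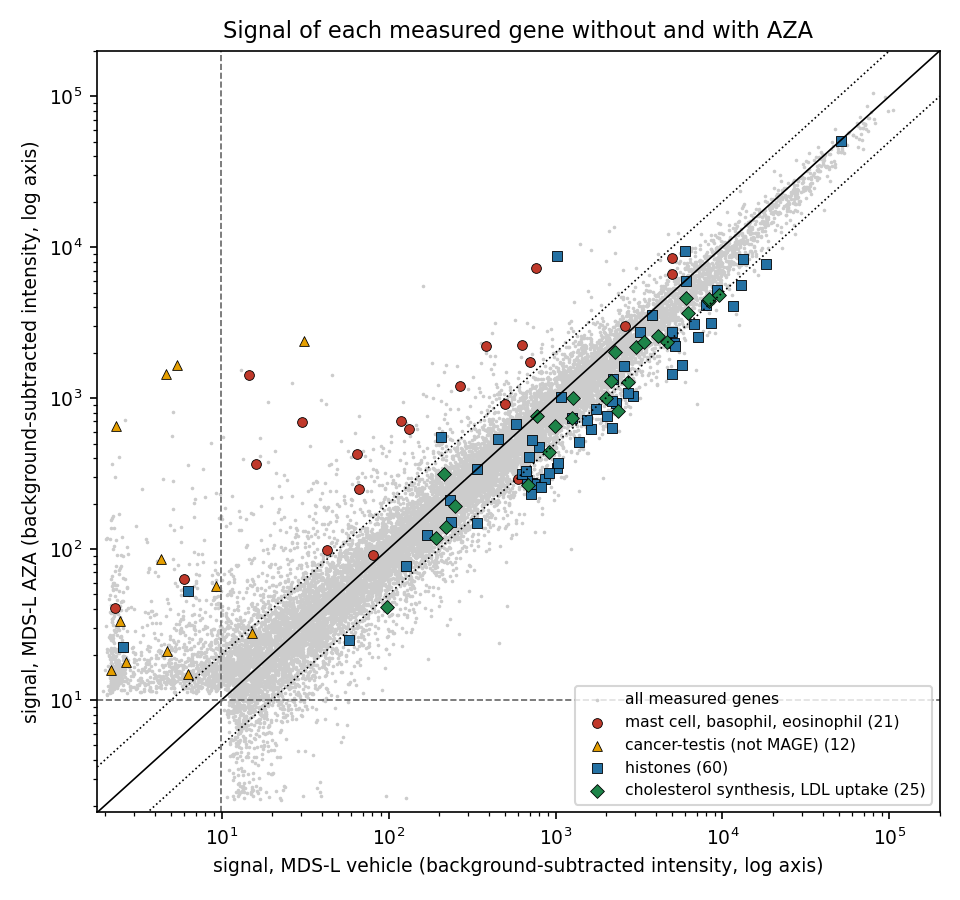
Signal on the vehicle array (horizontal) against the AZA array (vertical) in MDS-L cells, both on log axes of background-subtracted intensity, with 1 grey point for each of 17172 measured genes; the solid line marks equal signal, dotted lines a 2-fold difference and dashed lines the lowest signal called above background. The 21 mast cell, basophil and eosinophil genes (red) and 12 cancer-testis genes (triangles) lie mostly above the upper dotted line, and most of the 60 histone genes (squares) and the 25 cholesterol genes (diamonds) lie below the solid line.

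Genes of mast cells, basophils and eosinophils rose as a group. Of 30 such genes on the array, 21 were measured, 15 increased (71.4%) and 1 decreased, with a median log2 ratio of 2.02 against -0.13 over all genes. The largest rise among genes measured on both arrays was that of PRG2, the major basic protein of eosinophil granules, whose signal was 14.7 in vehicle and 1412 with AZA, a difference of 95.6-fold. CLC, which encodes the Charcot-Leyden crystal protein galectin-10, gave 30.4 in vehicle and 696 with AZA (22.7-fold), and MS4A3, a membrane protein of immature myeloid cells and basophils, gave 16.1 in vehicle and 364 with AZA (22.5-fold). These 3 genes started close to the background limit and reached signals many times above it.

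Enzymes and receptors of mast cells were among the increased genes. HDC, which makes histamine, went from 763 to 7256 (9.45-fold), and CPA3, the mast cell carboxypeptidase, from 630 to 2234 (3.52-fold). The tryptases TPSAB1 and TPSD1, whose near-identical copies probes may not separate, increased 5.91-fold and 6.59-fold. FCER1A and MS4A2, the alpha and beta chains of the high-affinity IgE receptor, increased 5.70-fold and 3.72-fold, and the factor GATA2, which acts in stem cells and mast cells, 2.46-fold. Genes with a similar rise were LTC4S, the leukotriene C4 synthase (4.65-fold), SIGLEC6 (4.48-fold), and SLC18A2, which loads histamine into granules (at least 6.35-fold). CTSG, a serine protease of mast cells and neutrophils, was the exception and decreased 2.05-fold, from 596 to 293. HPGDS, the prostaglandin D synthase, and RNASE2, an eosinophil ribonuclease, gave ratios of 1.69-fold and 1.12-fold, short of the threshold.

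KIT, the receptor for stem cell factor on progenitors and mast cells, rose 47.3-fold, from 26.4 to 1261, at the probe chr4:55606511-55606570 (hg19), and of its other 2 probes 1 gave at least 5.20-fold and the other, at chr4:55593626-55593685, was below background on both arrays (2.48 and 2.94). In MDS-L/CDA cells the log2 ratio of KIT was 1.84, while the values were 2.71 for CPA3, 2.01 for HDC and 2.02 for FCER1A, and PRG2, above background there with AZA only, had a bound of 0.96. In that line 16 of the mast cell, basophil and eosinophil genes were measured, 8 increased and 1 decreased, with a median log2 ratio of 1.00. There, 2.53% of 15393 measured genes increased and 3.07% decreased. With 1 array per treatment in each line, their difference could not be tested. Among 21 measured haematopoietic cytokine receptors, 8 increased and 0 decreased, with a median log2 ratio of 0.38 that became -0.17 when the arrays were centred on the median of all probes. Besides KIT they included CSF1R, the receptor that guides monocytes (at least 4.86-fold), IL1RL1, the IL-33 receptor of mast cells (2.27-fold), and the IL-2 receptor chain IL2RB (2.47-fold).

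The promoters of these leading genes differed in CG content, which is where methylation sits. The 250 bases before the RefSeq start of KIT (GRCh38.p14, chr4:54657707-54657956, plus strand), CLC (chr19:39738030-39738279, minus strand) and MS4A3 (chr11:60056415-60056664, plus strand) are shown with each CG in capitals. They hold 34, 2 and 5 CGs.
KIT: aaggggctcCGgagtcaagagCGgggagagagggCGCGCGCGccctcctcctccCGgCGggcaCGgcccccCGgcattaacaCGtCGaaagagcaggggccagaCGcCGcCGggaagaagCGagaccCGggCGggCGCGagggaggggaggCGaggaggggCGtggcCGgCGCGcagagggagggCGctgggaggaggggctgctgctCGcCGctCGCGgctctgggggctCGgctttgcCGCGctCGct
CLC: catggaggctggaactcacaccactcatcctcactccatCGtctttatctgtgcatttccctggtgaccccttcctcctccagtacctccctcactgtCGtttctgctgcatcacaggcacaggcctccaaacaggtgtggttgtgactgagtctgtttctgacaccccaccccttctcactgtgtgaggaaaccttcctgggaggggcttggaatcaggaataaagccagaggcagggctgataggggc
MS4A3: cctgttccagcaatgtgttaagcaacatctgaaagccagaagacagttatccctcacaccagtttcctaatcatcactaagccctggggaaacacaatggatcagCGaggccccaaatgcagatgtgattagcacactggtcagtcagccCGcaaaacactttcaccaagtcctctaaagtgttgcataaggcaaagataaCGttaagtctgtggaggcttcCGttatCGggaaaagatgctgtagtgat
KIT thus had a CG-dense promoter, while CLC and MS4A3, which rose 22.7-fold and 22.5-fold, had few CGs near their starts. The 18 of 21 measured mast cell, basophil and eosinophil genes with a promoter in the RefSeq table had a median of 5.5 CGs in the 300 bases around the start. A comparison of CG content over all increased and decreased genes was void, since only 60.2% of measured genes had a promoter in that table. Methylation itself was not measured in these files.

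Markers of other cell types were examined in the same arrays. Of 7 markers of myeloid progenitors, 6 were above background on both arrays, among them CD34 (599 to 439) and CD33 (1208 to 1581), while MPO was below background on both. The summed signal of 6 T cell markers rose from 34.7 to 331, which came from CD3D (at least 23.5-fold) and CD2 (at least 5.94-fold), with CD3E, CD3G, CD5 and CD8A below background on both arrays. Of 4 B cell markers, 2 were above background on both arrays, among them CD79A (737 to 566), while MS4A1 and PAX5 were below it. All 4 fibroblast markers were below background on both arrays, and 2 of 4 NK cell and 2 of 5 epithelial markers were above it on both. Single markers of a lineage thus appeared while the other markers of that lineage did not, and the cells that gave these signals were not identified.

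Cancer-testis genes, which encode antigens normally made in germ cells and are mostly on chromosome X, gave the highest bounds. Of 35 such genes outside the MAGE family on the array, 12 were measured, 8 of them increased and 0 decreased. However, 10 of the 12 counted as measured through the AZA array only, and such a gene could not count as decreased. Of these 10, 7 increased, against 35.6% of all 1363 genes measured with AZA only. GAGE7 rose from 5.43 to 1663, at least 165-fold, and GAGE2B from 31.1 to 2387, 76.1-fold. CTAG1A, the NY-ESO-1 gene, and CTAG2 were at least 144-fold and at least 64.7-fold higher. The GAGE probes and the CTAG1A probe cannot separate near-identical copies, so the number of genes that rose is uncertain. PRAME was at least 8.57-fold higher, at 86.1 with AZA. On chromosome X, PNMA5 (at least 117-fold) and the homeobox gene RHOXF2 (at least 36.3-fold) were also among the 15 highest bounds.

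Most other germline genes were not measured on either array. In the MAGE family, 3 of 21 genes were measured and 1, MAGEA9, increased (2.39 to 33.6, at least 3.34-fold). Among genes of meiosis and the piRNA pathway, 18 of 59 were measured, 3 increased and 1 decreased. TDRD9, a helicase of the piRNA pathway, was at least 3.76-fold higher, whereas TEX19, a germ cell gene that was already measured in vehicle, decreased 3.10-fold, from 210 to 68.2. Clustered protocadherins, whose promoters are often methylated in cultured cells, were measured for 2 of 46 genes and neither increased.

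**Figure D2:**
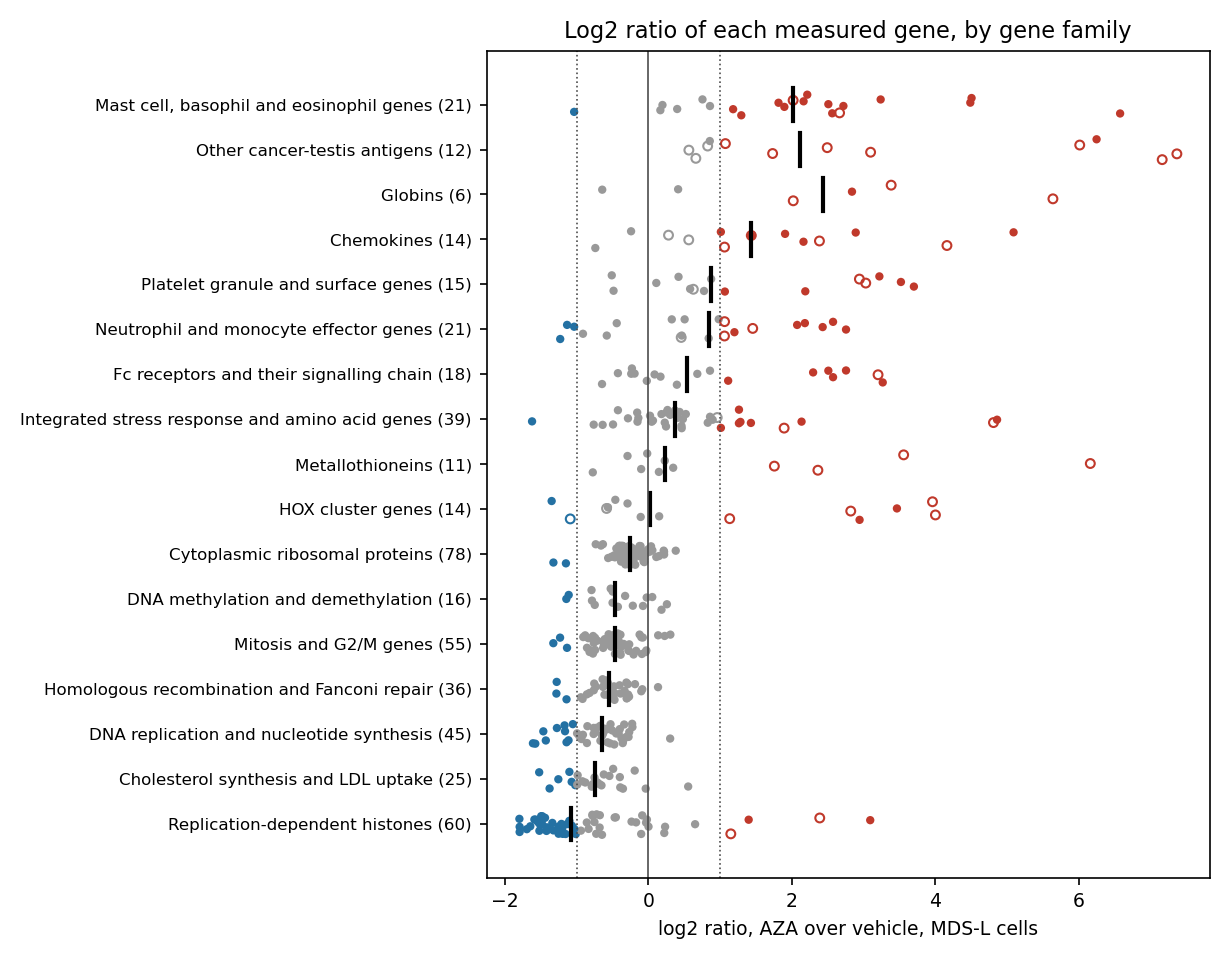
Log2 ratio of the AZA to the vehicle signal in MDS-L cells (horizontal) for the measured genes of 17 families (vertical); filled red and blue points are genes at least 2-fold higher and lower, grey points are short of 2-fold, open points are bounds for genes below background on 1 array, and bars are medians. The mast cell, basophil and eosinophil median is 2.02 and the histone median is -1.08. The cancer-testis median is 2.11, with 10 of its 12 genes measured with AZA only.

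Genes of red cells and platelets rose in part. Of 6 measured globins, 4 increased (66.7%, against 6.73% of all genes) and 0 decreased, with a median log2 ratio of 2.43. Of these 4, 3 were below background in vehicle and so counted as measured through the AZA array only. The 3 globins measured on both arrays had a median log2 ratio of 0.42, and 1 of them increased. HBG1, a fetal globin that its probe may not separate from HBG2, was at least 49.9-fold higher and reached 502. The delta globin HBD rose from 435 to 3134 (7.16-fold), the beta globin HBB was at least 4.06-fold higher and the alpha globin HBA2 at least 10.5-fold higher, while the embryonic HBE1 was below background on both arrays. GATA1, the main erythroid and megakaryocytic transcription factor, rose 11.4-fold, from 66.3 to 763, and NFE2, which acts with it on globin and platelet genes, 2.59-fold, from 4689 to 12238. BCL11A, a repressor of fetal globin genes, moved the other way, from 1799 to 731, 2.48-fold lower, and its 3 other probes gave log2 ratios from -2.09 to -1.83.

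Not all red cell genes followed. Among 18 measured genes of the erythroid membrane and blood groups, 3 increased and 2 decreased, with CA2, a carbonic anhydrase, 3.63-fold lower and EPB42, a membrane skeleton protein, 2.07-fold lower. Of 21 measured genes of heme synthesis and iron uptake, 2 increased and 1 decreased, and the stress-responsive heme oxygenase HMOX1 rose 3.40-fold, with a log2 ratio of 1.77 ± 0.106 (SE over repeated spots). Platelet genes rose more often, with 7 of 15 measured genes increased and 0 decreased and a median log2 ratio of 0.88. GP1BB and GP9, chains of the platelet receptor for von Willebrand factor, rose 9.33-fold and at least 8.18-fold, and von Willebrand factor itself, VWF, 11.5-fold. PPBP, the precursor of a platelet chemokine, increased 13-fold.

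Neutrophil and monocyte effector genes included 9 increases and 3 decreases among 21 measured genes, with a median log2 ratio of 0.84. MMP9, a granule gelatinase, rose from 44.8 to 243 (5.39-fold), and NCF1, a subunit of the oxidase that makes superoxide, increased 4.54-fold. In the Fc receptor family and its signalling chain, 7 of 18 measured genes increased and 0 decreased, and the median log2 ratio was 0.54, or -0.001 when the arrays were centred on the median of all probes. FCGR2A, an activating IgG receptor with near-identical relatives, rose 6.76-fold, from 81.1 to 552. The Src-family kinases FGR and FYN rose 9.64-fold and at least 9.21-fold, and TYROBP, the adaptor DAP12, 2.16-fold.

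Among transcription factors of granulocytes and monocytes, 3 of 16 increased and 1 decreased. EGR1, an immediate early gene tied to monocyte maturation, rose from 20.1 to 219 (10.8-fold), KLF2 5.51-fold and the differentiation inhibitor ID2 4.80-fold, and GFI1, a repressor required for neutrophils, fell 2.02-fold. Among stem and progenitor surface markers 2 of 19 measured genes increased and 2 decreased. The 2 decreases were CD38 (1235 to 446, 2.79-fold) and ITGA4, an adhesion integrin (1030 to 437, 2.38-fold), and the other probes of ITGA4 gave log2 ratios of -2.25 and -1.62.

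Chemokines, which attract leukocytes, increased in 10 of 14 measured genes, with 0 decreases and a median log2 ratio of 1.43. CCL2, the monocyte attractant, went from 160 to 5496, a difference of 34.1-fold, and as its probe was spotted repeatedly its log2 ratio had a narrow technical error, 5.09 ± 0.033 (SE). CCL1 was at least 17.9-fold higher, CCL5 at least 5.23-fold higher, and CXCL3 and CXCL2 rose 4.48-fold and 2.02-fold. CCL3 went from 114 to 311 (2.70-fold). In the resistant line the log2 ratios were 4.07 for CCL2 and 2.83 for CCL3, and the family median was 1.57.

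Receptors and cytokines that act with the chemokines moved less evenly. Among chemokine receptors 4 of 9 measured genes increased and 0 decreased, including CXCR4, the receptor that holds progenitors in the marrow (146 to 663, 4.50-fold), and CX3CR1 (at least 6.57-fold). CXCR4 was below background on both MDS-L/CDA arrays. Cytokines and NF-kB feedback genes counted 7 increases and 1 decrease among 28. TNF rose 21.4-fold, from 42.2 to 911, and IL1B 2.35-fold, from 1241 to 2935, together with IL1RN, the antagonist of the IL-1 receptor (5.85-fold). TNFSF10, the death ligand TRAIL, decreased 2.15-fold.

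Interferon-stimulated genes held both increases and decreases. Of 40 measured interferon-stimulated and RNA-sensing genes, 8 increased (20.0%, against 6.73% of all genes) and 2 decreased, with a median log2 ratio of 0.13, which was -0.41 with the arrays centred on the median of all probes. The increased members included the exonuclease ISG20 (322 to 1381, 4.25-fold), OASL (at least 5.39-fold) and the cytidine deaminases of single-stranded DNA APOBEC3B (4.25-fold) and APOBEC3G (3.10-fold). TRIM22 and the DNA sensor IFI16 decreased 2.82-fold and 2.23-fold, and ISG15, a standard marker of interferon, went from 4258 to 5278, short of 2-fold. For HLA class I presentation, 0 of 21 genes increased and 1 decreased, the peptide-trimming enzyme ERAP2 (3.94-fold lower). A ratio below 1 was found in 17 of the 21, against 58.9% of all measured genes and 68 of 78 cytoplasmic ribosomal protein genes. The median log2 ratio was -0.36, and -0.12 with quantile normalization. In class II, HLA-DRA fell 3.04-fold and its activator CIITA 2.31-fold, whereas HLA-DPA1 rose 4.17-fold.

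**Figure D3:**
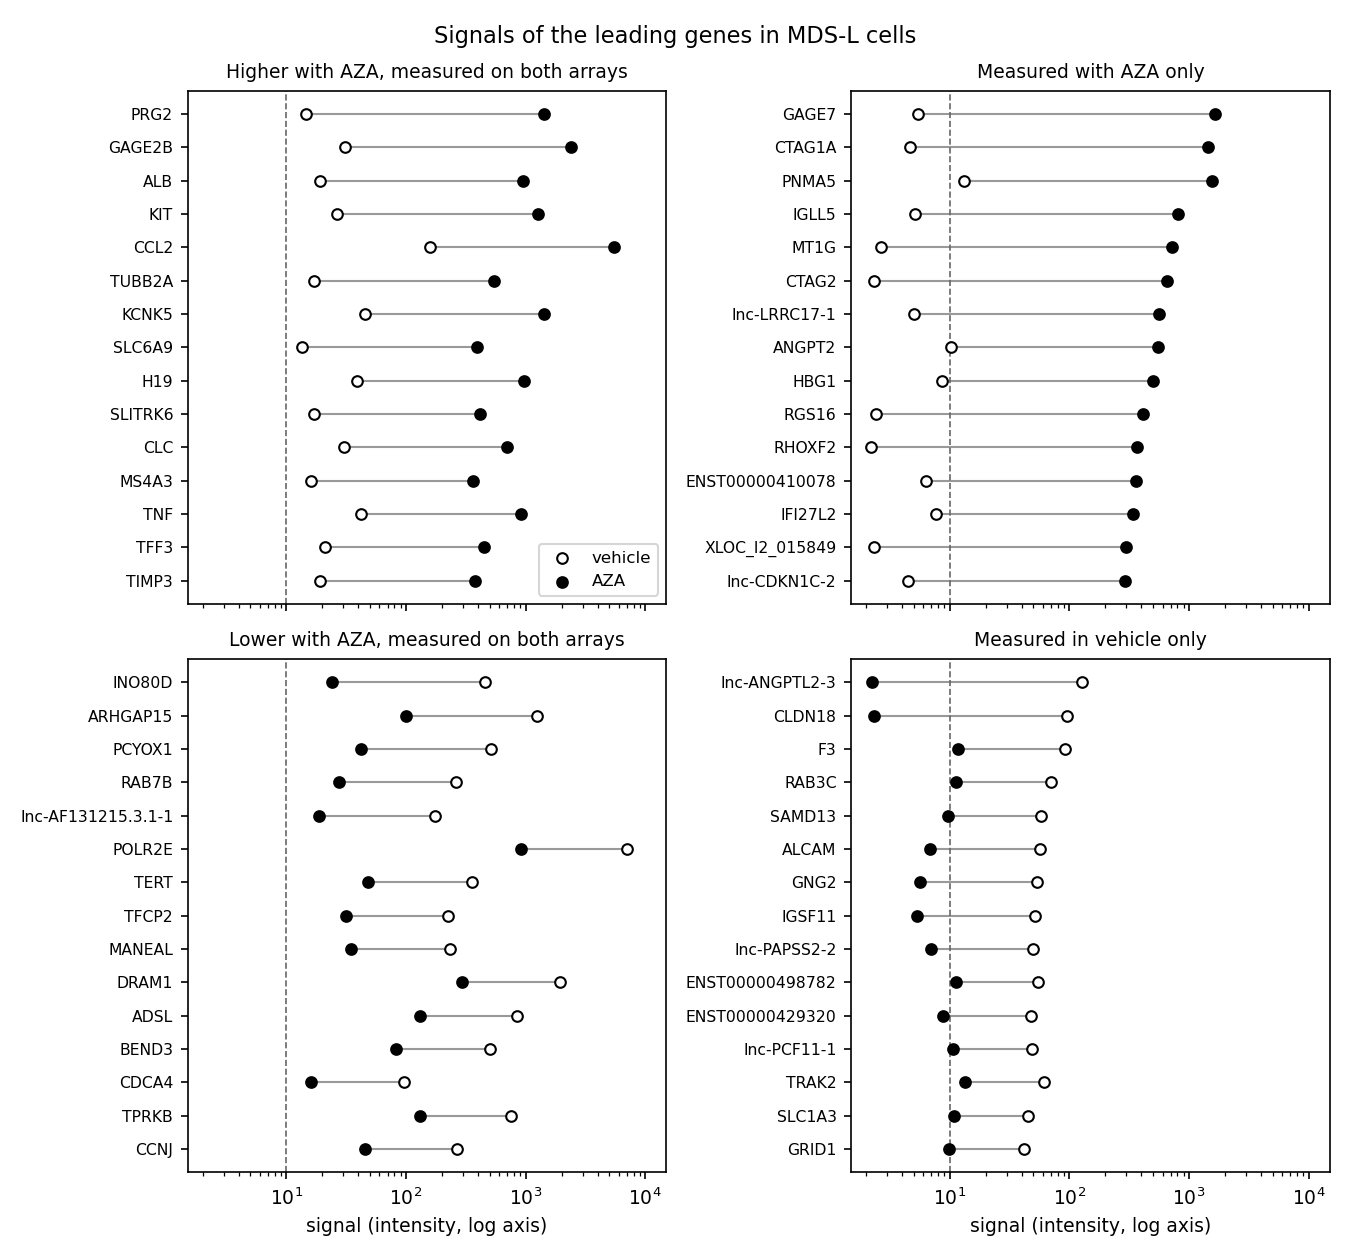
Signal (background-subtracted intensity, horizontal, log axis) on the vehicle array (open circles) and the AZA array (filled circles) for 4 sets of 15 genes: the largest increases and decreases among genes measured on both arrays, and the largest bounds among genes measured with AZA only and in vehicle only; the dashed line is the lowest signal called above background on the vehicle array. PRG2 spans 95.6-fold, while the largest decrease, INO80D, spans 19.4-fold and the next largest 12.4-fold.

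Stress genes gave a few steep rises within families that otherwise moved little. In the integrated stress response, by which cells short of amino acids or with misfolded proteins raise ATF4 targets, 9 of 39 measured genes increased and 1 decreased, and the median log2 ratio of 0.37 turned to -0.17 when the arrays were centred on the median of all probes. CHAC1, which degrades glutathione, rose at least 28.1-fold, from 5.15 to 282. DDIT4, an inhibitor of mTOR signalling, rose 4.40-fold, with a log2 ratio of 2.14 ± 0.078 (SE over spots), SLC7A11, the cystine transporter, 2.40-fold, and PSAT1 of serine synthesis at least 3.72-fold. SLC6A9, a glycine transporter, rose 29.1-fold at its brighter probe, but a second probe gave a bound of only 1.12-fold. Other standard targets were short of the threshold, with DDIT3 1.29-fold, TRIB3 1.17-fold and ASNS 1.86-fold higher, and ATF4 itself, which is controlled mainly in translation, went from 26742 to 27821. In MDS-L/CDA cells 0 genes of this list increased and 1 decreased.

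The metallothioneins, metal-binding proteins encoded side by side on chromosome 16, comprised genes silent and genes active in vehicle, and only part of the silent ones rose. MT1G, MT1H, MT1F and MT1M were below background in vehicle and became at least 71.7-fold, at least 11.8-fold, at least 5.15-fold and at least 3.38-fold higher with AZA. MT1G, at chr16:56700694-56700752 (hg19), went from 2.64 to 720. Their neighbours that were already bright stayed short of 2-fold, as MT2A went from 27302 to 22488, MT1X from 1242 to 1467 and MT1A from 5537 to 6177. MT4 (2.29 and 2.53), MT1DP (2.43 and 3.26) and MT1IP (2.29 and 2.68) of the same cluster were below background on both arrays. MT1E gave 1.27-fold at its brighter probe while another probe had a log2 ratio of 5.01, and cross-reaction between these near-identical genes cannot be told apart from separate changes.

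Immediate early genes, which respond to growth factors and stress, counted 7 increases and 1 decrease among 27. Beside EGR1, the AP-1 subunits FOS and FOSB rose 6.21-fold and 2.90-fold and IER3 4.31-fold, while ZFP36L2, which promotes mRNA decay, fell 2.64-fold. Targets of p53 did not move together: of 36 measured, 6 increased and 1 decreased, with a median log2 ratio of 0.00. TP53INP1, a p53-induced nuclear protein, rose 7.43-fold and the antiproliferative gene BTG2 4.63-fold, while CDKN1A, the p21 inhibitor, went from 10.3 to 16.6, above background with AZA only and at least 1.60-fold higher. ER chaperones and other genes of the unfolded protein response counted 1 increase and 1 decrease among 27, and heat shock proteins and cochaperones 4 and 2 among 33.

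Of the genes the study followed further, 5 were below background in vehicle along with PRAME above. ANGPT2, an angiopoietin, was 10.2 in vehicle and 554 with AZA (at least 54-fold), and BIK, a BH3-only death gene, 2.32 in vehicle and 115 with AZA (at least 11.5-fold). ADCYAP1, the neuropeptide PACAP, was at least 14.2-fold higher and ALOX12, the 12-lipoxygenase of platelets, at least 9.13-fold higher, reaching 91.8. The fifth, CHAC1, is given with the stress genes. The 250 bases before the start of ALOX12 (GRCh38.p14, chr17:6995799-6996048, plus strand), shown because the study examined methylation upstream of this gene, hold 19 CGs, in capitals.
ALOX12: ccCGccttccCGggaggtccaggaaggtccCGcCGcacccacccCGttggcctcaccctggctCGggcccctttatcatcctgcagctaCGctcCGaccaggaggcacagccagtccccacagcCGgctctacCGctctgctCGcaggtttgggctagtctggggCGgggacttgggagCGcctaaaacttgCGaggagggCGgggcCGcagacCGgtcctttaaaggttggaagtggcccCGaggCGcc
Among 15 measured lipoxygenase, cyclooxygenase and related enzymes, 4 increased and 2 decreased, among them ALOX5AP (4.50-fold higher) and PTGES3 (5.29-fold lower).

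HOX genes, which set positional and progenitor identity, were mostly below background, with 14 of 39 measured. In the HOXC cluster, HOXC9 (at least 16-fold), HOXC6 (at least 15.6-fold) and HOXC4 (at least 7.07-fold) appeared from below background. HOXB5 rose 11.1-fold, from 15.3 to 171, and HOXB6 7.70-fold, from 57.4 to 446, and HOXB9 was at least 2.20-fold higher, while HOXB2, HOXB3 and HOXB4 were short of 2-fold. In the HOXA cluster, HOXA5 decreased 2.55-fold and HOXA6 at least 2.13-fold, and HOXA9, the HOX gene of myeloid progenitors, went from 2127 to 1450, short of 2-fold like HOXA3 and HOXA10. The 3 other measured probes of HOXA9 gave log2 ratios from -1.67 to -0.55, and 1 of them decreased. None of the 9 HOXD genes was measured.

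A run of imprinted genes near the end of the short arm of chromosome 11 contained both increases and a decrease within about 1 megabase. H19, a noncoding RNA expressed from the maternal copy (chr11:2016674-2016733, hg19), rose 24.6-fold, from 39.2 to 970, with 28.1-fold at a second probe, and its log2 ratio in MDS-L/CDA cells was 0.24. CDKN1C, the cell cycle inhibitor p57 (chr11:2904903-2904962), rose from 2252 to 13621 (6.0-fold) and a neighbouring noncoding transcript, lnc-CDKN1C-2, was at least 29-fold higher. KCNQ1OT1, the noncoding RNA transcribed from an imprinting centre inside KCNQ1, rose 2.02-fold, while KCNQ1 decreased 2.23-fold. SLC22A18 increased 3.40-fold, PHLDA2 went from 663 to 855, and IGF2 was below background on both arrays. Over all 27 measured imprinted genes, 4 increased and 2 decreased, and the 4 increased genes (H19, CDKN1C, KCNQ1OT1 and SLC22A18) all lay in this run.

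The family with the largest share of decreases was that of the replication-dependent histones, the proteins that package newly made DNA. Of 69 such genes on the array 60 were measured, of which 33 decreased (55.0%) and 4 increased, with a median log2 ratio of -1.08, and 52 of the 60 had a ratio below 1. Relative to the median of all genes the histone median stayed between -0.97 and -0.87 under every processing alternative run. The classes differed, with all 13 measured H3 genes decreased (log2 ratios from -1.79 to -1.13), 11 of 15 H2A genes, 3 of 5 H1 genes, 4 of 12 H4 genes and 2 of 15 H2B genes. HIST1H3D fell from 11624 to 4085 (2.87-fold), HIST1H3G from 5690 to 1652 (3.47-fold), HIST1H2AH from 4992 to 1446 (3.48-fold) and the linker histone HIST1H1B from 2187 to 635 (3.47-fold). In MDS-L/CDA cells the family median was -0.20, with 0 increases and 2 decreases. Probes of these genes can share sequence with their near-identical copies, so the genes are not independent measurements. On chromosome 6, where most of them lie, 27 of 52 histone genes decreased (51.9%) against 55 of 835 other genes (6.59%).

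**Figure D4:**
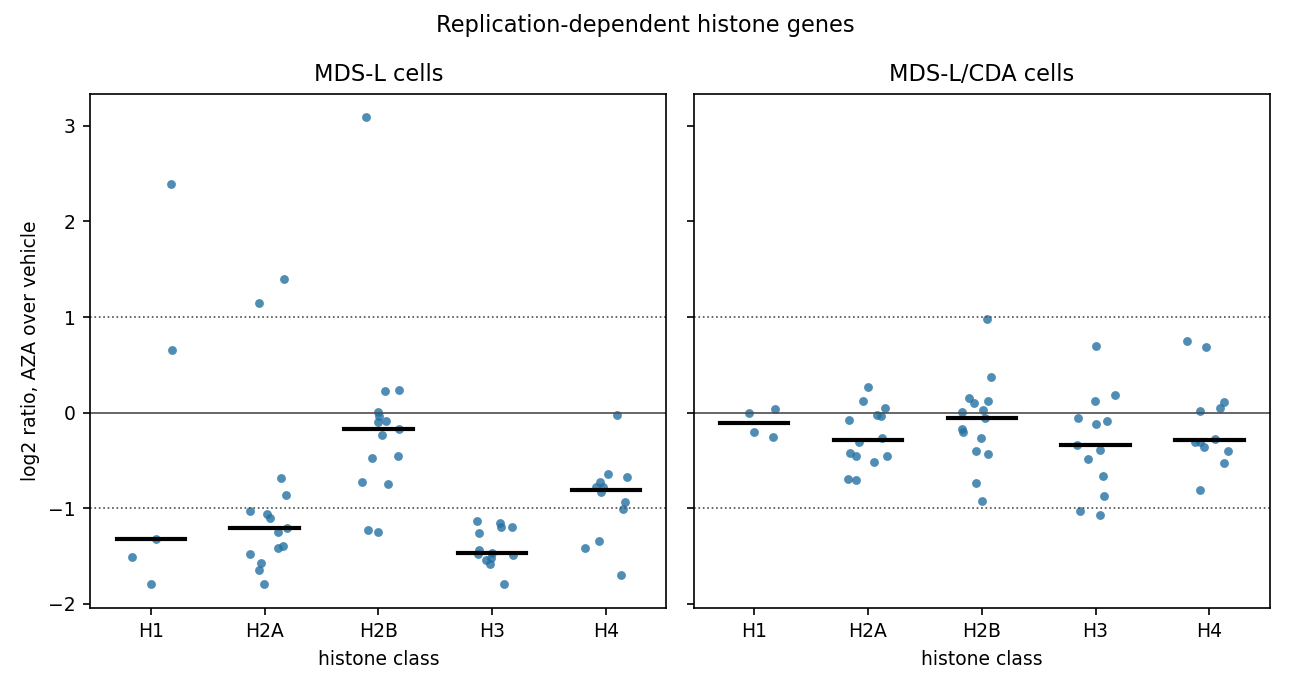
Log2 ratio of AZA to vehicle signal (vertical) for measured replication-dependent histone genes by class (horizontal) in MDS-L and in MDS-L/CDA cells, with bars at the medians, bounds included. In MDS-L cells the H3 median is -1.46 and the H2B median -0.17, and in MDS-L/CDA cells these medians are -0.34 and -0.05.

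Probes far downstream of HIST1H2AC, HIST1H4H and HIST1H2BK, genes singled out after their values were seen, rose while those near the genes fell or stayed short of 2-fold. Histone messages of this kind normally end in a stem-loop close behind the coding part, and some of the genes are also known to give longer polyadenylated RNAs. For HIST1H2AC, the probe at chr6:26124461-26124520 (hg19) fell from 745 to 269, whereas the probe at chr6:26138822-26138881, 14.4 kb downstream of the first probe of the gene, rose from 72.1 to 1369, 18.8-fold. For HIST1H4H, the probe near the gene fell from 822 to 256 and the one 4.21 kb downstream rose from 36.3 to 360, 9.83-fold. HIST1H2BK, the one increased H2B gene, was counted from a probe 8.25 kb downstream that rose from 1015 to 8735 (8.54-fold), and its probe nearer the start went from 1495 to 1953. Of 13 histone genes with several probes, 5 had probes at least 1 kb apart, 4 of those had their last probe measured, and 3 of the 4 last probes increased. In the 8 genes with probes closer than 1 kb, 0 probes increased. In MDS-L/CDA cells the distal probes of HIST1H2AC, HIST1H4H and HIST1H2BK had log2 ratios of 1.67, 1.31 and 0.98.

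Promoters of these histone genes share the CCAAT box, the site of the factor NF-Y. Counted on both strands, the letters CCAAT stood in the 300 bases around the start of 48 of the 57 histone genes with a promoter in the RefSeq table (84.2%) and of 39.7% of all 27305 genes in it. HIST1H1B, which fell, and HIST1H2BK, whose distal probe rose, both carry it, as the 250 bases before their starts show with CCAAT or its reverse complement ATTGG in capitals (GRCh38.p14, minus strand, chr6:27867589-27867838 and chr6:27146859-27147108).
HIST1H1B: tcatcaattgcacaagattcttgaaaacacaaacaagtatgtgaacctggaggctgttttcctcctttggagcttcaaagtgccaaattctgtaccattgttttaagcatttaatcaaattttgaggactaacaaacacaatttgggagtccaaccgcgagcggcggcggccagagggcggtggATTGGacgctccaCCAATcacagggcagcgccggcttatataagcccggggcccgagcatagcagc
HIST1H2BK: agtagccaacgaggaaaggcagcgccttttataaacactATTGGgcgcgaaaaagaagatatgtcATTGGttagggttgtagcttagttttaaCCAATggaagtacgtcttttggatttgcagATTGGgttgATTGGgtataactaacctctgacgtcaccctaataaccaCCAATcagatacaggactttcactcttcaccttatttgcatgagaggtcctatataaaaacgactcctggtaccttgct
The first window holds 2 such matches and the second 6. Of the 32 histone genes past 2-fold that had a promoter in the table, 29 carried the letters, beside 48 of all 57. Whether the box bears on these changes was not tested, and a match is no evidence of binding.

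Genes of DNA replication decreased in smaller number. Of 45 measured genes of DNA replication and nucleotide synthesis, 10 decreased (22.2%, against 6.03% of all genes) and 0 increased, with a median log2 ratio of -0.65. A ratio below 1 was found in 44 of them, against 58.9% of all measured genes, but such a ratio was also common in bright housekeeping families, with 68 of 78 cytoplasmic ribosomal protein genes and 68 of 75 respiratory chain subunits below 1. The helicase subunits MCM3 and MCM6 decreased 2.24-fold and 2.07-fold, GINS1, a partner of that helicase, 2.69-fold, and CTPS1 of nucleotide synthesis 2.76-fold. The sliding clamp PCNA was 1.59-fold lower at its brightest probe and had a log2 ratio of -2.27 at another. In MDS-L/CDA cells the median of these genes was 0.07, and MCM6 had a log2 ratio of 0.49.

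Of 55 measured mitotic genes 3 decreased (5.45%), a share close to the 6.03% of all genes, and 52 had a ratio below 1, with a median log2 ratio of -0.47. The 3 were the phosphatase CDC25A (2.35-fold lower), the kinase subunit CKS1B (2.19-fold) and the kinetochore protein SPC25 (2.51-fold), while the proliferation markers TOP2A and MKI67 were 1.67-fold and 1.21-fold lower. In homologous recombination and Fanconi repair, 35 of 36 genes had a ratio below 1 and 3 decreased, CHEK1, the replication checkpoint kinase (2.43-fold), RAD54L (2.21-fold) and RAD54B (2.43-fold), for which another probe had a log2 ratio of 0.09. The medians of the replication, mitosis and repair families were below that of all genes, -0.13, and did not change sign under any alternative run.

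Regulators of the G1 phase moved in both directions. CDK6, a kinase that drives progenitors into the cycle, fell from 4070 to 1229 (3.34-fold) with a log2 ratio of 0.07 in MDS-L/CDA cells. The inhibitors CDKN1C and CDKN2D rose 6.0-fold and 2.85-fold, but the inhibitor CDKN1B decreased 2.62-fold, and cyclin CCND1 appeared from below background (at least 7.38-fold). MYC went from 28593 to 20024, 1.44-fold lower, and another of its probes had a log2 ratio of -1.32. TERT, the catalytic subunit of telomerase, fell from 358 to 48.5 (7.43-fold), and its repeated spots gave a log2 ratio of -2.89 ± 0.054 (SE).

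Among genes of cholesterol synthesis and uptake, 6 of 25 measured genes decreased (24.0%) and 0 increased, with a median log2 ratio of -0.75 and 24 ratios below 1. INSIG1, the sterol-regulated brake of the pathway, fell from 682 to 264 (2.60-fold), and the synthesis enzymes MSMO1 2.39-fold, MVK 2.15-fold, HMGCS1 2.10-fold and CYP51A1 2.03-fold. SREBF2, the factor that drives the pathway, went from 774 to 761. In the resistant line 4 members decreased, with a family median of -0.31 and a log2 ratio of -1.0 for INSIG1.

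Genes that AZA acts on, or that carry and convert it, were examined next. Among 16 measured genes of DNA methylation and demethylation, 2 decreased (12.5%, against 6.03% of all genes) and 0 increased. The 2 were the de novo methyltransferase DNMT3B (5776 to 2694, 2.16-fold) and UHRF1, which brings DNMT1 to replicated DNA (1326 to 605, 2.21-fold). The median log2 ratio of these 16 genes was -0.46, and 13 had a ratio below 1, against 58.9% of all measured genes. The calls depended on processing. With quantile normalization, and with the value table of the authors, 0 of the 16 decreased and the median was -0.21. Normexp background correction gave 1 decrease, and centring on the median of all probes gave 8. DNMT1 went from 445 to 358 and DNMT3A from 121 to 120. None of 19 measured genes of AZA uptake, activation and breakdown passed 2-fold. In 15 of the 19 the ratio was below 1, against 58.9% of all measured genes, and the median was -0.33. The nucleoside carriers SLC29A2 and SLC29A1 were 1.91-fold and 1.77-fold lower and the activating kinase UCK2 1.59-fold lower, and CDA was below background on both MDS-L arrays.

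Families of other functions gave a scale for these values. Of 78 cytoplasmic ribosomal protein genes 2 decreased, 0 increased and 68 had a ratio below 1 (median -0.26), and of 75 respiratory chain subunits 4 decreased, 0 increased and 68 had a ratio below 1 (median -0.29). Of 429 zinc finger genes, 10 increased and 22 decreased (median -0.09), and long intergenic noncoding RNAs and named antisense RNAs, read from 393 and 334 measured genes, counted 33 and 26 increases and 23 and 15 decreases. By chromosome, the increased share was highest on chromosome 22, at 48 of 480 measured genes (10.0%), with 8.69% on X, and lowest on chromosome 5, at 3.85%. The decreased share was highest on chromosome 6, at 9.24%, where the histones lie, and 3.34% on chromosome 19.

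Several of the deepest falls were seen by only some of a gene's probes. INO80D, a subunit of a chromatin remodeller, had the largest fall, from 460 to 23.9 (19.4-fold), but its second probe had a log2 ratio of -0.15. The same held for PCYOX1 (12.3-fold against 0.80 at a second probe) and BEND3 (6.18-fold against -0.12). Falls read from the gene's only probe included ARHGAP15, a Rac regulator (1240 to 100, 12.4-fold), the purine synthesis enzyme ADSL (853 to 131, 6.58-fold), and RAB7B and DRAM1 of the lysosomal pathway, which fell 9.70-fold and 6.59-fold and had log2 ratios of -1.77 and -1.14 in MDS-L/CDA cells. Of genes below background with AZA, the tight junction gene CLDN18 (96.1 in vehicle and 2.31 with AZA, at least 9.61-fold lower), tissue factor F3 (at least 7.92-fold) and the adhesion molecule ALCAM (at least 5.63-fold) were among the 15 largest bounds. Among 32 recurrently mutated MDS genes, 2 decreased (6.25%, a share close to the 6.03% of all genes), 1 increased and 29 were short of 2-fold. The 2 decreases were SMC3 of cohesin, which fell from 2386 to 603 (3.99-fold), and IDH1 (3.08-fold).

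Of 26 genes of the albumin cluster and other liver secretory genes, 7 were measured and 3 increased. ALB, serum albumin, rose from 19.1 to 947 (49.3-fold), and its neighbour AFP, alpha-fetoprotein, and the apolipoprotein APOC1 were at least 5.25-fold and at least 4.52-fold higher, while the liver gene APOA1 went from 87.4 to 58.5 and TTR and FGB were below background on both arrays. Among the 15 largest increases were also TIMP3, an inhibitor of matrix proteases (19.6-fold), KCNK5, a potassium channel (30.8-fold), TUBB2A, a neuronal tubulin (31.6-fold), and the mucosal peptide TFF3 (21.1-fold). SLITRK6 rose 24.2-fold at one probe, with a bound of 1.29-fold at the other.

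Which of the 2 arrays stood apart was read from all 4. For 483 of the 1155 increased genes (41.8%) the MDS-L AZA array was at least 2-fold above each of the other 3 arrays, and for 39 (3.38%) it was the vehicle array that was at least 2-fold below the other 3. Among the 1036 decreased genes these counts were 302 (29.2%) and 89 (8.59%). POLR2E, a subunit shared by the RNA polymerases, belonged to the second kind, with 7021 in vehicle and 918 with AZA in MDS-L cells and 673 to 1327 in MDS-L/CDA cells, as did TFCP2 (224 to 31.2 and 22.1 to 31.5) and TPRKB (755 to 130 and 115 to 169). Of the 1155 increased genes, 751 were also measured in MDS-L/CDA cells, where 24.8% of them increased and 7 decreased. Of the 1036 decreased genes, 974 were measured there, of which 13.4% also decreased and 22 increased.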

How the data were processed

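RNA from each of the 4 conditions was hybridized to 1 one-colour (Cy3) Agilent array, and all arrays lay on 1 slide. The authors deposited scanner files in which intensity is the background-subtracted processed signal of Agilent Feature Extraction 10.7.1.1, with probe positions on hg19, and a value table of 51680 probes on the linear intensity scale, whose columns have nearly equal distributions and follow the scanner signals, and which was used as an alternative only. From the scanner files, control spots and outlier spots were left out, which removed 16 probes. Spots of a probe were averaged as log2 signals, from which the array's own 75th percentile (52.5 and 52.9 in MDS-L cells, linear) was subtracted. The printed signals are the unscaled linear values, and ratios are scaled. A gene was read from the probe with the highest mean over the 4 arrays, and no test was run because each condition had 1 array. The genes named were the 15 largest increases, decreases and bounds of each kind, members of 57 gene lists, and the genes that the study names, and exceptions are stated. Values of some list members are not reported here. The members and lists were chosen with earlier results of these data known. Names are those of the array design. Promoters came from RefSeq (GRCh38.p14), 250 bases before to 50 after each start, for 17053 gene names. Alternatives were other scalings, normexp with an offset of 50 (limma 3.58.1 in R 4.3.3), other filters on background, other folds, a Z score of at least 2, other rules for several probes, and the value table. Python 3.11.15 with pandas 2.3.3 and numpy 2.4.6 computed the values, and the scripts were tested on simulated data. The number of arrays limits the precision.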

Additional observations from a re-analysis of the deposited data

Results flagged for a closer look

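Among the leading genes and list members, 5 decreased with AZA in MDS-L cells but increased with AZA in MDS-L/CDA cells, and 0 went the other way. The log2 ratios, first in the sensitive and then in the resistant line, were -2.95 and 1.11 for POLR2E, -2.55 and 1.17 for CCNJ, -2.22 and 1.41 (bounds) for lnc-PCF11-1, -1.58 and 1.70 for PRIM2, and -1.19 and 1.03 for ZNF180. No test of these contrasts was possible with 1 array per condition. For POLR2E the signals were 7021 and 918 in MDS-L cells and 673 to 1327 in MDS-L/CDA cells. A second, dim POLR2E probe (30.6 and 9.94 in MDS-L cells) was lower with AZA in both lines, with log2 ratios or bounds of -1.61 and -1.10. PRIM2, the large primase subunit, gave 697 and 236 in MDS-L cells and 89.9 to 266 in MDS-L/CDA cells, and its 3 other measured probes had log2 ratios from -1.02 to -0.34 in MDS-L cells. In each of these genes the MDS-L vehicle array had the highest of the 4 signals, and the part of that array in these results was not tested.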

How the results depend on the processing

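The counts of 1155 increased and 1036 decreased genes, and the share of increases, 52.7%, depended on the scaling, filter and threshold. Centring on the median of all probes gave 563 and 4328 (11.5%), normexp background correction 378 and 428 (46.9%), no filter on background 4654 and 2215 (67.8%), a fold of 1.5 gave 2426 and 3112 (43.8%), a fold of 3 gave 544 and 239 (69.5%), and a Z score of at least 2 in addition 609 and 440 (58.1%). With genes above background on both arrays only, 670 increased (42.9%). The share was 65.7% when centred on probes above background on both arrays, 59.6% with spike-in scaling and 57.9% with ratios computed below background. Of family medians at least 0.19 (the spot SD) from 0, those that changed sign under centring on all probes were MAGE (-0.31), meiosis and piRNA (-0.17), cytokine receptors (-0.17), erythroid membrane (-0.21), granulocyte and monocyte factors (-0.22), chemokine receptors (-0.15), cytokines and NF-kB (-0.025), integrated stress response (-0.17), metallothioneins (-0.31), Fc receptors (-0.001), angiopoietin and VEGF (-0.079), BMP (-0.32), smooth muscle (-0.11) and immune checkpoints (-0.22). Of the same medians, MAGE also turned with quantile normalization and with the value table (-0.068 each), and with genes above background on both arrays erythroid membrane (-0.049), metallothioneins (-0.016), angiopoietin and VEGF (-0.49) and liver genes (-0.37) turned. Medians nearer 0 turned in 10 further families when centred on all probes, in 9 with quantile normalization, in 10 with the value table, in 1 with genes above background on both arrays, and in up to 6 under other settings. Medians of mast cell, cancer-testis, globin, chemokine, platelet, neutrophil, histone, replication, mitosis, repair and cholesterol genes kept their sign under every alternative run. For cancer-testis genes this says little, since 10 of the 12 were measured with AZA only, which favours a ratio above 1. The setting with genes above background on both arrays left 2 of them, too few for a median, and was not run for that family. Of 448 named genes past 2-fold, 387 passed under quantile normalization and 220 under normexp, and 0 changed sign under these. When centred on all probes 349 passed. That centring shifted every log2 ratio by the same -0.54, so a gene past 2-fold could not change sign under it. The family medians that turned under it kept their distance from the median of all genes. No paired analysis was possible because each condition had 1 array. The causes of the shifts under the other settings were not tested. With 1 array per condition, neither the spread between cultures nor an array effect could be measured, and 435 genes lay within 0.05 on the log2 scale of the 2-fold threshold.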

Other observations

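Smaller families, described here as values only, contained a few steep changes. Of 9 measured BH3-only death genes, 2 increased, BIK and BMF (4.11-fold), and of 10 BCL2 survival proteins and effectors 1 increased, BCL2L2 (4.36-fold). Of 16 measured smooth-muscle and contractile genes, 4 increased and 0 decreased, among them the actin ACTG2 (11.3-fold), the myosin light chain MYL9 (at least 7.69-fold) and its kinase MYLK (at least 4.66-fold). Of 14 measured genes of BMP signalling, 4 increased, including the ligand BMP6 (3.88-fold) and the inhibitor SMAD7 (2.74-fold). Immune checkpoint genes counted 3 increases among 13, the costimulatory ligands CD86 (4.55-fold) and TNFSF9 (3.18-fold) and the receptor LAG3 (at least 2.97-fold).

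Genes of oxidant defence and metabolism divided. Of 30 measured glutathione and NRF2 genes, 5 increased and 0 decreased, with OSGIN1 2.50-fold and the transporter ABCC3 at least 5.74-fold higher beside HMOX1 and SLC7A11. Of 36 hypoxia and glycolysis genes, 3 increased and 2 decreased, with ENO2, a neuronal enolase, 4.64-fold higher and PDK1, which restrains pyruvate oxidation, 3.67-fold lower. ABC transporters counted 3 increases and 2 decreases among 24, with ABCB10, a mitochondrial transporter of erythroid cells, 2.82-fold lower. HSPA2 rose 7.28-fold and HSPA1A, which its probe may not separate from HSPA1B, at least 9.18-fold. In eicosanoid synthesis, ALOX5AP, which presents arachidonic acid to 5-lipoxygenase, rose 4.50-fold and HPGD, which inactivates prostaglandins, 3.85-fold, while PTGES3 fell 5.29-fold.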
